A study of Homo sapiens with 12 samples.

Results

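The comparison set hemogenic endothelial progenitors against the stem cells they were made from. CD31+CD34+ cells, which carry the surface proteins CD31 and CD34, were collected at day 5 of an H1 culture driven toward blood. Undifferentiated H1 cells, a long-used human embryonic stem cell line, were the other population. The 6 libraries, 3 of each population, were chosen by their labels from the 12 of the series, whose other 6 come from APLNR+ cells of day 2 and CD43+ cells of day 8. Cultures had received activin A and BMP4 in a defined medium until day 2, and VEGF with bFGF after that. All libraries derive from this 1 line. The methods speak in general of independent experiments behind each analysis, but neither they nor the labels say which cultures the 3 libraries of a population came from. The p-values measure the spread between these libraries, which may be technical where cultures were shared.

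Hemogenic endothelium is the part of the embryonic vessel wall from which the first blood stem and progenitor cells bud. Its cells line a vessel and carry endothelial adhesion and receptor proteins, while transcription factors such as TAL1, LMO2, GATA2 and RUNX1 open the path to blood. Cells that lose their endothelial character and round up as blood pass through what is called the endothelial-to-hematopoietic transition. Embryonic stem cells, in contrast, are an epithelial sheet held together by E-cadherin and kept undifferentiated by POU5F1, SOX2 and NANOG.

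Expression was given as FPKM, in which a gene's fragments are divided by the length of its transcript and by the size of the library. A gene was tested where it reached 1 FPKM in at least 3 of the 6 libraries, which held for 13729 of 56593 gene symbols. Of these, 10592 reached 1 FPKM in all 6 libraries, 1136 passed through H1 libraries alone and 854 through CD31+CD34+ libraries alone. A gene that passed through a single population had to differ, so lists are described with their untested members too. Changes are differences in mean log2(FPKM + 1), CD31+CD34+ minus H1, which understate the change of genes with low values. A gene was called raised or lowered where the Benjamini-Hochberg adjusted p from limma lay below 0.05 and expression changed 2-fold or more. Genes were named by a rule given with the processing, and list members outside that rule were named after their values were seen. A value after ± beside a change is the standard error of the fit, and after an FPKM mean it is the SD of 3 libraries.

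Between 12437 and 13084 gene entries reached 1 FPKM in each of the 6 libraries. The first of 5 principal components held 91.6% of the variance and parted the populations. The second held 4.17% and set replicate 1 of both populations (scores of 17.4 and 30.5) apart from replicates 2 and 3 (-18.4 to -8.19). Genes of small RNAs took 55.5% to 58.0% of the summed FPKM in H1 libraries and 54.7%, 10.4% and 24.7% in CD31+CD34+ replicates 1, 2 and 3. What part these differences play in single changes was not tested, and counts without the doubted libraries are given beside the main ones.

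**Figure D1:**
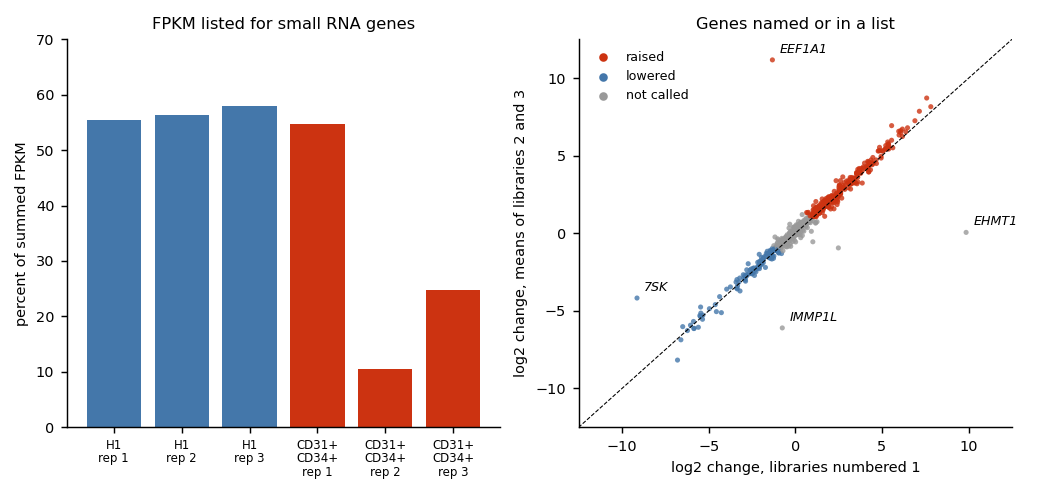
Left, the percent of summed FPKM listed for small RNA genes (vertical axis) in each library of H1 (blue) and CD31+CD34+ cells (red); CD31+CD34+ replicates 2 and 3 stand low at 10.4% and 24.7%. Right, the log2 change of 620 genes that are named or in a list, from the libraries numbered 1 (horizontal axis) and from the means of libraries 2 and 3 (vertical axis), colored by call; of 397 called genes, 396 had the same sign in both.

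The surface genes that define the population and the stem cell genes matched the labels. PECAM1, which encodes CD31, stood at 0.248, 0.0647 and 0.0692 FPKM in H1 replicates 1, 2 and 3 and at 50.9, 59.03 and 55.6 FPKM in CD31+CD34+ replicates 1, 2 and 3. CD34 stood at 0.0966, 0.0533 and 0.0366 FPKM in H1 against 39.8, 53.4 and 49.99 FPKM in CD31+CD34+ libraries, in the same order. Both genes were near absent from every H1 library and high in every day 5 library. The log2 changes were 5.64 ± 0.11 for PECAM1 (limma adjusted p = 6.72e-09) and 5.51 ± 0.13 for CD34 (adjusted p = 1.06e-08). POU5F1, the OCT4 gene, fell from 1009, 1028 and 967 FPKM to 73.9, 92.2 and 86.9 FPKM, a change of -3.56 ± 0.11 (adjusted p = 3.45e-08). USP44, a deubiquitinase gene of stem cells, fell from 86.1, 93.6 and 93.3 FPKM to 0.496, 0.465 and 0.208 FPKM, a change of -6.05 ± 0.11 (adjusted p = 6.13e-09). PECAM1 and CD34 define the population, and they passed the minimum of 1 FPKM through CD31+CD34+ libraries alone, as USP44 did through H1 libraries alone, so for these genes the direction was fixed by the choice. The populations did not overlap for any of the 4 genes, nor for 81.0% of all genes tested. Each of the 4 gave an exact two-sided permutation p of 0.1, the smallest that 3 against 3 libraries allow. Any gene without overlap gives that value. POU5F1 thus kept a level above that of PECAM1 in the CD31+CD34+ cells on the per-length FPKM scale, whereas USP44 was nearly gone. In bulk RNA, fewer cells of a type and less RNA per cell cannot be told apart.

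Across all genes, 2482 were raised (18.1% of 13729) and 3423 were lowered (24.9%), with 7824 not called. The median change was -0.11 and the median size of a change 0.86. By the adjusted p alone 10904 genes passed, and 4999 of them changed by less than 2-fold. A share of raised or lowered genes in a list that lies near these percentages is not a result about the list. The libraries of the populations did not overlap for 81.0% of the genes tested. Changes above 4-fold went up in 794 genes and down in 979, but above 16-fold the order turned, with 123 genes up and 48 down. Protein-coding genes were raised in 2310 and lowered in 3021 of 12191 cases. Genes of other long types, mostly noncoding RNAs and pseudogenes, leaned further to the lowered side, at 115 raised and 340 lowered of 1237. Small RNA genes went the other way, at 29 raised and 7 lowered of 84, and these are the genes whose summed share differs between CD31+CD34+ libraries. With replicates 2 and 3 alone, 2604 genes were raised and 3383 lowered, and the counts of the endothelial, transcription factor, pluripotency, epithelial and mesenchymal lists given below were the same. Quantile normalization moved the balance most, to 2797 raised and 3030 lowered, and shifted the median change by 0.11.

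**Figure D2:**
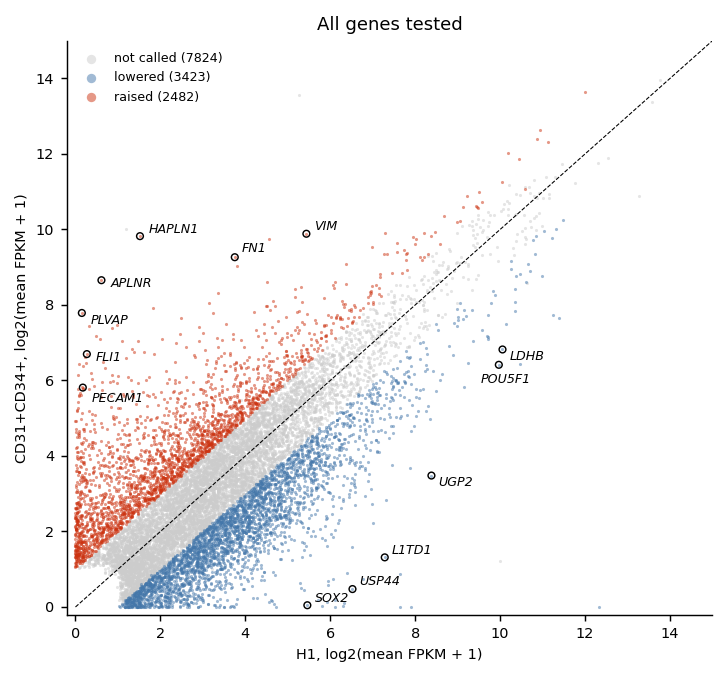
Mean expression of the 13729 genes tested in H1 cells (horizontal axis) and CD31+CD34+ cells (vertical axis), both as log2(mean FPKM + 1), with 2482 raised genes in red, 3423 lowered genes in blue and the dashed line at equal expression. Rises reach farther from the line than falls, with 123 genes raised and 48 lowered over 16-fold.

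The 12 largest rises among protein-coding genes joined endothelial genes to genes of other kinds. They were chosen among genes whose libraries did not overlap. All but HAPLN1 and GNG11 passed the minimum of 1 FPKM through CD31+CD34+ libraries alone, which fixed their direction. HAPLN1, which encodes a protein that links hyaluronan to proteoglycans, stood at 2.92, 1.16 and 1.52 FPKM in H1 against 749, 963 and 1003 FPKM in CD31+CD34+ libraries, a log2 change of 8.34 ± 0.22 (adjusted p = 1.85e-08). It had the largest rise of any protein-coding gene named by this rule. The apelin receptor gene APLNR, the marker of the day 2 population, stood at 0.688, 0.386 and 0.509 FPKM and 381, 429 and 398 FPKM, a change of 8.05 ± 0.11. PLVAP, which encodes the protein of the diaphragms in endothelial fenestrae and caveolae, stood at 0.269, 0.0276 and 0.0321 FPKM and 180.5, 255 and 224 FPKM, a change of 7.63 ± 0.15. For all of these genes the lowest day 5 library was above 100 FPKM and the highest H1 library below 3 FPKM. GAD1, whose product makes the neurotransmitter GABA from glutamate, stood at 0.424, 0.187 and 0.139 FPKM and 169.5, 186 and 168 FPKM, a change of 7.14 ± 0.11. BMPER, which encodes a secreted BMP-binding protein of vessels, stood at 0.538, 0.225 and 0.421 FPKM and 136, 151 and 142 FPKM, a change of 6.69 ± 0.11. The rest were the G-protein subunit gene GNG11 (6.49), the cystatin gene CST1 (6.48), the ETS factor gene FLI1 (6.44), VE-cadherin CDH5 (6.37), the adaptor gene GRAP2 (6.35), the BMP9 and BMP10 receptor gene ACVRL1 (6.22) and the blood and endothelial factor gene TAL1 (6.22). CST1 had day 5 libraries that lay well apart, at 87.96, 165 and 154 FPKM, and belongs to a family of similar cystatin genes.

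The 12 largest falls among protein-coding genes, chosen in the same way, began with USP44 and held several genes known from human stem cells. All but L1TD1, MT1X and UGP2 passed the minimum of 1 FPKM through H1 libraries alone, which fixed their direction. POLR3G, which encodes a subunit of an RNA polymerase III form of undifferentiated cells, stood at 105, 109 and 110.0 FPKM in H1 against 0.838, 0.573 and 0.576 FPKM in CD31+CD34+ libraries, a change of -6.04 ± 0.10 (adjusted p = 5.27e-09). L1TD1, an RNA-binding protein gene derived from a LINE-1 element, stood at 149, 157 and 158 FPKM and 1.25, 1.502 and 1.71 FPKM, a change of -5.97 ± 0.10. SOX2 stood at 47.9, 40.3 and 40.9 FPKM and 0.0898, 0.00388 and 0.00443 FPKM, a change of -5.41 ± 0.11. SOX2 was thus lower in CD31+CD34+ cells than POU5F1, its partner in stem cells, in every library. UGP2, whose enzyme makes UDP-glucose, stood at 342, 329.8 and 326 FPKM and 9.98, 9.902 and 10.6 FPKM, a change of -4.90 ± 0.083. The values of this metabolic gene varied little within either population. The others were the calcium sensor gene VSNL1 (-5.91), the retinoic acid binding protein gene CRABP1 (-5.49), TMEM132B (-5.38), chondromodulin CNMD (-5.30), the Src-family kinase gene LCK (-5.26), the metallothionein gene MT1X (-5.00) and the secreted glycoprotein gene NELL2 (-4.89).

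**Figure D3:**
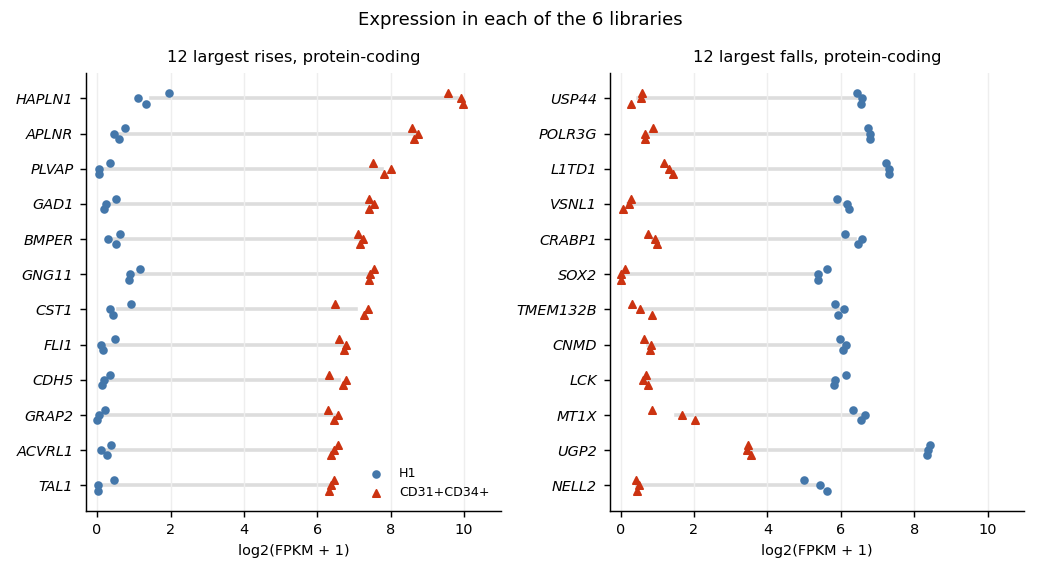
Expression as log2(FPKM + 1) in each library of H1 (blue circles) and CD31+CD34+ cells (red triangles) for the 12 largest rises (left) and 12 largest falls (right) among protein-coding genes, with grey bars joining the population means. The genes were chosen for libraries without overlap and for the size of the change, so the populations lie far apart for every gene. SOX2 lies closest to 0 in the CD31+CD34+ cells.

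Among genes of other types or of no annotated type, the long noncoding RNA PCAT14 had the largest rise, from 1.15, 0.619 and 0.6602 FPKM to 155, 169 and 174 FPKM (6.54 ± 0.13). It was followed by FAM212A (4.51), LINC00963 (4.17), GATA2-AS1 (4.04) and AP000867.4 (3.95). FAM212A had no match by symbol in GENCODE 29, so its type is unknown here and it may be protein-coding. LINC00678 had the largest fall that could be given as a change, from 199, 205 and 197 FPKM to 1.05, 0.762 and 0.675 FPKM (-6.79 ± 0.10), followed by AC064802.1 (-6.26) and FOXD3-AS1 (-6.19). Whether counting used the strand is not given in the sources used here, so reads of GATA2-AS1 and FOXD3-AS1 cannot be told apart from those of GATA2 and FOXD3. A pair of entries was listed at 0 in every day 5 library: AL109914.1, at 111, 382 and 219.6 FPKM in H1, and 7SK, at 565, 12.6 and 23.2 FPKM in H1. A 0 in a table without counts can be a failed estimate, so no change is given for them.

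Of 31 endothelial surface and junction genes, 26 were tested, 24 were raised and 0 were lowered, with a median change of 3.56 against -0.11 and a raised share of 18.1% over all genes. Of the tested members 17 passed through the CD31+CD34+ libraries alone, which fixed their direction. Summed over the list, expression was 159.5 to 166 FPKM in H1 and 2040 to 2289 FPKM in CD31+CD34+ libraries. CDH5, which encodes the cadherin of endothelial junctions, stood at 0.279, 0.148 and 0.0892 FPKM in H1 against 79.1, 108 and 103 FPKM in CD31+CD34+ libraries, a change of 6.37 ± 0.14 (adjusted p = 8.51e-09). The adhesion gene ICAM2 stood at 0.827, 0.421 and 0.486 FPKM and 84.9, 94.5 and 89.3 FPKM, and the junction gene ESAM at 0.0999, 0.0189 and 0.01195 FPKM and 43.3, 61.7 and 56.3 FPKM. Changes were 5.85 ± 0.12 and 5.70 ± 0.14, with no overlap of libraries, as for 81.0% of all genes tested. Further members, named after their values were seen, were EGFL7, a secreted factor of vessels that went from 22.5 ± 5.17 to 865 ± 98.2 FPKM, and the raised genes MMRN2 (5.31), STAB1 (4.95), ECSCR (4.35), MCAM (4.14), SELE (3.76), VWF (3.35), ENG (3.28), CALCRL (2.22) and ROBO4 (1.99).

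The pair of tested endothelial genes that were not called were CLDN5 and PODXL. CLDN5, the tight junction protein gene of mature endothelium, stood at 0.471, 0.587 and 0.257 FPKM and 1.95, 1.56 and 1.41 FPKM, a change of 0.88 ± 0.12 that missed the 2-fold minimum. With a pseudocount of 0.1 or quantile normalization its change passed that minimum, at 1.73 and 1.00. PODXL, which stem cells also express, stood at 91.2, 109 and 109 FPKM and 78.05, 86.4 and 84.5 FPKM (-0.31 ± 0.10). The 5 untested members were the endomucin gene EMCN, MMRN1, JAM2, and the sinusoidal and lymphatic receptor genes STAB2 and LYVE1. Mean values of these 5 in the day 5 libraries were 0.396, 0.642, 0.0574, 0.0253 and 0.00373 FPKM in that order. Thus most tested genes of the endothelial surface were raised in these cells, though not all to high levels. These 5 form a group because they did not reach the minimum for testing.

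Promoters of the endothelial genes were read from RefSeq (GRCh38.p14), as windows from 250 bases before to 50 bases after each gene's start, and were found for 19 of the 31 genes. ETS factors such as FLI1, ERG and ETV2 bind sequences around GGAA, and the motif searched was CAGGAAG, on both strands. It stood in 7 of the 19 windows (36.8%), in 4 of 21 windows of pluripotency genes and in 12.8% of all 27305 windows. The other ETS motif, CCGGAAG, stood in 0 of the 19 windows and in 10.7% of all. The GATA motif AGATAAG stood in 3 of 28 windows of endothelial and blood transcription factors (10.7%), in 0 of the 19 endothelial windows and in 2.63% of all. The E-box CAGATG stood in 5 of the 19 endothelial windows (26.3%), in 2 of 28 transcription factor windows (7.14%), in 0 of the 21 pluripotency windows and in 14.8% of all. The octamer ATGCAAAT stood in none of these sets and in 1.80% of all windows. These are descriptions of letters in a window, with no test, and no motif overlapped another in the sequences shown.

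The 120 bases before the start are shown for the 6 endothelial genes whose CAGGAAG lies within them and for TAL1, a transcription factor gene that holds the GATA motif there. Capitals mark CAGGAAG, the E-box (CATCTG in ECSCR, read on the other strand, and the first base of an E-box that runs past the start in EGFL7) and, in TAL1, AGATAAG read on the other strand. The seventh gene, S1PR1, has its CAGGAAG farther from the start.
PLVAP: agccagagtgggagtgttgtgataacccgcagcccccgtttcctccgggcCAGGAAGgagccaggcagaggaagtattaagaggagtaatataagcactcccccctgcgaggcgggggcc
ROBO4: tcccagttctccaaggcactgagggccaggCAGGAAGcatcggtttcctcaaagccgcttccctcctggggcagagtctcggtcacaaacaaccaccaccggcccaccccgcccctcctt
ECSCR: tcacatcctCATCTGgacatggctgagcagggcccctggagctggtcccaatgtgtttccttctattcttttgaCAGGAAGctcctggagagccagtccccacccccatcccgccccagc
EGFL7: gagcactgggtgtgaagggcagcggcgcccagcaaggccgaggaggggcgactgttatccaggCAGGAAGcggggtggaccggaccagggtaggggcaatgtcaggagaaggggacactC
SELE: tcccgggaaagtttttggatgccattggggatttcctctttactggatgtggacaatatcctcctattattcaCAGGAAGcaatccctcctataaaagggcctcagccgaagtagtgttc
CALCRL: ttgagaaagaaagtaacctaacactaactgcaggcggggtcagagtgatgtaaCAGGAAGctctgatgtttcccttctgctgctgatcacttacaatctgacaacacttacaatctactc
TAL1: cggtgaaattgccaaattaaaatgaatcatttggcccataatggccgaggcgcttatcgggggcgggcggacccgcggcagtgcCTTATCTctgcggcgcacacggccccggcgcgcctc
In order, the windows are PLVAP, chr19:17377343-17377462 on the minus strand; ROBO4, chr11:124897866-124897985 on the minus strand; ECSCR, chr5:139462744-139462863 on the minus strand; EGFL7, chr9:136658736-136658855 on the plus strand; SELE, chr1:169734080-169734199 on the minus strand; CALCRL, chr2:187448253-187448372 on the minus strand; and TAL1, chr1:47232336-47232455 on the minus strand. Each ends at the base before the RefSeq start of its gene. All 7 genes were raised, by 7.63, 1.99, 4.35, 5.22, 3.76, 2.22 and 6.22. So were 24 of 26 tested genes of the endothelial list and 31 of 34 of the transcription factor list. These rises are therefore no result about the motifs.

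Receptors of vessel growth factors rose, while the ligands divided. VEGF, added to the culture from day 2, signals through KDR and FLT1 with the neuropilins as co-receptors, and angiopoietins signal through the TIE receptors. Of 18 genes of this group, 14 were tested, 12 raised and 1 lowered, beside 18.1% and 24.9% over all genes. Their median change was 2.82, and 4 passed through CD31+CD34+ libraries alone. TIE1, an orphan receptor gene, stood at 1.895, 1.32 and 1.62 FPKM in H1 against 106, 110.4 and 104 FPKM in CD31+CD34+ libraries (5.37 ± 0.11, adjusted p = 6.72e-09). NRP1 stood at 0.626, 0.3996 and 0.576 FPKM and 43.7, 57.5 and 57.4 FPKM (5.13 ± 0.13), and NRP2 at 4.31, 4.98 and 4.26 FPKM and 117, 169.9 and 160.0 FPKM (4.75 ± 0.15). Each of these receptors was higher in all 3 day 5 libraries, although NRP2 was already at 4.26 to 4.98 FPKM in H1. Receptor genes named after their values were seen were KDR, from 24.1 ± 4.23 to 276 ± 57.7 FPKM (3.46 ± 0.18), and FLT1 (1.77), FLT4 (2.84) and TEK (2.81). Both KDR and FLT1 were well above 1 FPKM in H1 cells.

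The ligands of the apelin receptor went opposite ways. APELA, which encodes the early embryonic ligand made by stem cells, stood at 11.02, 12.1 and 12.8 FPKM in H1 against 1.05, 1.16 and 1.44 FPKM in day 5 libraries (-2.55 ± 0.11, adjusted p = 2.08e-07). APLN, which encodes apelin and was named after its values were seen, stood at 0.254, 0.278 and 0.293 FPKM and 22.4, 26.6 and 23.7 FPKM (4.30 ± 0.11). No library of one population reached the range of the other for either gene, as for 81.0% of all genes tested. APLN passed the minimum of 1 FPKM through CD31+CD34+ libraries alone. VEGFA, at 9.05, 10.1 and 10.6 FPKM and 4.56, 5.399 and 5.82 FPKM (-0.80 ± 0.12), did not pass the 2-fold minimum although its libraries did not overlap. The placental growth factor gene PGF (1.95) and ANGPT2 (1.18) were raised.

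**Figure D4:**
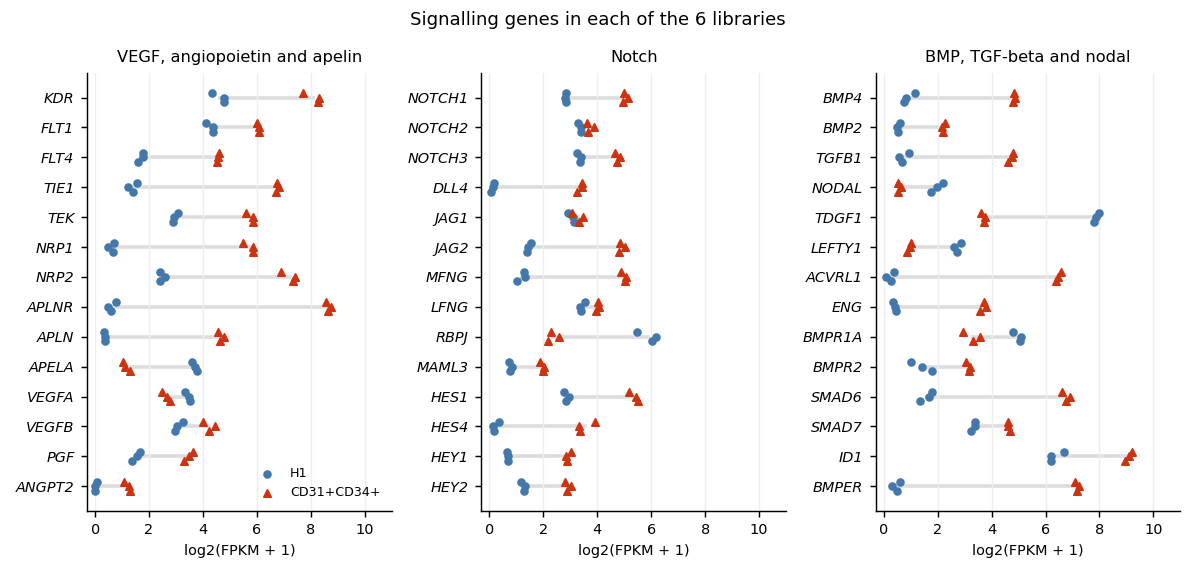
Expression as log2(FPKM + 1) in each library of H1 (blue circles) and CD31+CD34+ cells (red triangles) for genes of VEGF, angiopoietin and apelin signalling (left), Notch signalling (middle) and BMP, TGF-beta and nodal signalling (right), with grey bars joining the population means. APELA, RBPJ, NODAL, TDGF1, LEFTY1 and BMPR1A are the genes shown that were lowered.

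Transcription factors of endothelium and blood were raised in 31 of 34 tested cases and lowered in 0, beside 18.1% and 24.9% over all genes. Their median change was 3.32. Here 23 of the tested genes passed through CD31+CD34+ libraries alone. FLI1, an ETS factor gene active from early endothelium on, stood at 0.413, 0.0703 and 0.128 FPKM in H1 against 94.6, 109 and 105 FPKM in CD31+CD34+ libraries (6.44 ± 0.13, adjusted p = 6.72e-09). TAL1 stood at 0.388, 0.01299 and 0.0122 FPKM and 87.1, 82.7 and 78.8 FPKM (6.22 ± 0.14). LMO2, which encodes the bridging protein between TAL1 and GATA factors, stood at 0.675, 0.609 and 0.601 FPKM and 68.7, 87.9 and 81.04 FPKM (5.62 ± 0.11). All of these were over 60 FPKM in each day 5 library and under 1 FPKM in each H1 library. GATA2 stood at 0.1004, 0.0348 and 0.0714 FPKM and 43.6, 57.6 and 49.6 FPKM (5.58 ± 0.12). LDB1, whose protein holds the TAL1, LMO2 and GATA complex together, stood at 15.1, 17.5 and 17.99 FPKM and 24.5, 33.6 and 32.2 FPKM and missed the 2-fold minimum (0.79 ± 0.14). Of the genes of this complex named here, LDB1 was the one already well expressed in H1 cells. ETS2 (0.093) and FOXO1 (-0.33) were not called and their libraries overlapped.

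The factors of later blood formation stood lower than TAL1 and LMO2. Among members named after their values were seen, RUNX1, which drives the step from endothelium to blood, stood at 0.0866, 0.208 and 0.0946 FPKM in H1 against 8.88, 8.72 and 10.3 FPKM in day 5 libraries (3.19 ± 0.11). GFI1 and GFI1B, whose repressors switch off endothelial genes in that step, went from 0.03603 ± 0.0284 to 22.9 ± 1.34 FPKM and from 0.008500 ± 0.0147 to 23.7 ± 3.804 FPKM. MYB went from 1.07 ± 0.3502 to 6.02 ± 1.25 FPKM and GATA1 from 0.00851 ± 0.00901 to 1.83 ± 0.4798 FPKM. Factors of blood formation thus ranged from under 2 FPKM for GATA1 to over 20 FPKM for GFI1B. ETV2, a transient factor at the start of the endothelial lineage, went from 0.234 ± 0.119 to 4.61 ± 1.45 FPKM. The SOXF genes SOX7 (3.84), SOX17 (4.56) and SOX18 (2.05) and the related ETS and bHLH genes ERG (4.06) and LYL1 (5.40) were raised as well. SPI1, IKZF1, MECOM, NR2F2, PROX1 and FOXC2 did not reach the test, and SPI1, the myeloid factor gene, had a mean of 0.474 FPKM in CD31+CD34+ cells.

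Of 23 genes of arterial, venous and lymphatic identity, 18 were tested, 15 raised and 0 lowered, beside 18.1% and 24.9% over all genes. Their median change was 3.05, and 6 passed through CD31+CD34+ libraries alone. SOX17, a factor gene of arterial endothelium, stood at 0.155, 0.00473 and 0.02700 FPKM in H1 against 28.6, 23.4 and 20.6 FPKM in CD31+CD34+ libraries (4.56 ± 0.14, adjusted p = 3.45e-08). The raised genes also held, named after their values were seen, the arterial connexin genes GJA5 (4.22) and GJA4 (3.32), the chemokine receptor gene CXCR4 (3.45) and the venous receptor gene EPHB4, which went from 30.1 ± 1.15 to 109 ± 9.36 FPKM (1.82). Arterial EFNB2, the ligand of EPHB4, was not called at 2.62, 2.75 and 2.88 FPKM and 2.97, 3.78 and 4.01 FPKM (0.28 ± 0.12). The venous factor gene NR2F2 averaged 0.328 FPKM and the lymphatic receptor gene LYVE1 0.00373 FPKM in the CD31+CD34+ cells, and neither was tested. PDPN (-0.35) and IGFBP3 (0.59) were not called.

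Blood cell genes were mostly not expressed at a level that could be tested. Of 28 genes of red cells, platelets and white cells, 5 were tested and 3 raised, beside 18.1% over all genes. Of the 5 tested, KLF1 and SPN passed through CD31+CD34+ libraries alone, which fixed their direction. Of the 28, 6 were listed at 0 in all 3 day 5 libraries. Summed over the list, expression was 9.54 to 12.2 FPKM in H1 and 39.8 to 50.8 FPKM in CD31+CD34+ libraries. KLF1, a factor gene of red cell precursors, stood at 0.481, 0.385 and 0.288 FPKM in H1 against 18.1, 20.97 and 18.8 FPKM in day 5 libraries (3.87 ± 0.11, adjusted p = 2.73e-08). The fetal globin gene HBG2 stood at 1.08, 0.174 and 0.137 FPKM and 3.73, 3.78 and 3.76 FPKM (1.76 ± 0.22), and shares much of its sequence with HBG1, so its value is uncertain. SPN, which encodes CD43, the marker of the next population, stood at 0.499, 0.557 and 0.492 FPKM and 2.84, 4.198 and 4.06 FPKM (1.62 ± 0.13). Each of these was higher in every day 5 library than in any H1 library, and 81.0% of all genes tested had no overlap. ITGA2B, the CD41 gene, stood at 5.97, 6.15 and 9.18 FPKM and 7.19, 12.1 and 8.84 FPKM and was not called (0.35 ± 0.21). PF4 was not called either (0.10), and PTPRC, the CD45 gene, was listed at 0 in all 3 day 5 libraries.

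Receptors for blood cytokines were raised in 4 of 7 tested cases of 15, beside 18.1% over all genes. Their median change was 1.24, and 1 passed through CD31+CD34+ libraries alone. The erythropoietin receptor gene EPOR stood at 2.54, 2.66 and 2.63 FPKM in H1 against 7.29, 8.04 and 7.27 FPKM in day 5 libraries (1.24 ± 0.10, adjusted p = 5.12e-06). The LIF receptor gene LIFR (2.04) and IL6ST, the gene of its signalling partner gp130 (1.32), rose as well. KIT, the stem cell factor receptor gene of both stem cells and blood progenitors, stood at 4.75, 5.78 and 6.23 FPKM and 4.104, 5.11 and 4.91 FPKM, with overlapping libraries (-0.20 ± 0.13). Its ligand gene KITLG (0.25) and IL6R (0.38) were not called.

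**Figure D5:**
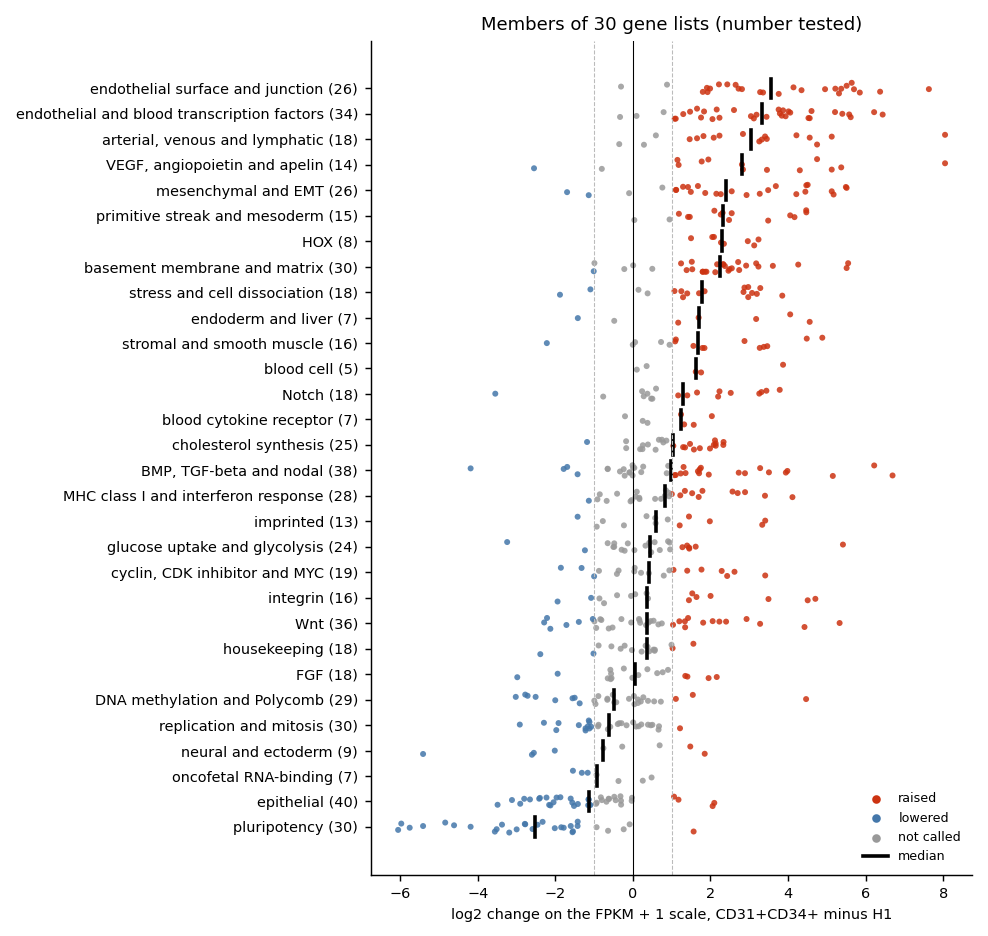
Log2 change on the FPKM + 1 scale (horizontal axis, CD31+CD34+ minus H1) of each tested member of 30 gene lists, ordered by list median (black bars), with the number tested in brackets and dashed lines at the 2-fold minimum. Medians run from 3.56 for the endothelial surface list to -2.52 for the pluripotency list, and most lists between them hold both raised and lowered members.

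Pluripotency genes were lowered in 25 of 30 tested cases of 32 and raised in 1, with a median change of -2.52, against a lowered share of 24.9% over all genes. Of the tested members 10 passed through H1 libraries alone. Summed over the list, expression was 3253 to 3380 FPKM in H1 and 454 to 554 FPKM in CD31+CD34+ libraries. Besides USP44, L1TD1 and SOX2, the long noncoding RNA LNCPRESS1 fell from 62.6, 52.01 and 49.4 FPKM to 0.0769, 0 and 0 FPKM (-5.76 ± 0.12, adjusted p = 6.88e-09). NANOG, named after its values were seen, fell from 39.4, 53.3 and 53.2 FPKM to 3.21, 5.97 and 4.34 FPKM (-3.19 ± 0.20). No library of the CD31+CD34+ cells reached the H1 range for either gene, and 81.0% of all genes tested had no overlap. LIN28A, which encodes an RNA-binding protein that blocks let-7 maturation, stood at 388, 432 and 424 FPKM and 188, 233 and 229 FPKM, a change of -0.94 ± 0.11 just under the 2-fold minimum. SALL4, a zinc finger factor gene, stood at 34.98, 40.9 and 36.4 FPKM and 21.3, 24.7 and 24.9 FPKM (-0.64 ± 0.10). Both were still among the well expressed genes of the CD31+CD34+ cells. GDF3 overlapped between populations (-0.085 ± 0.22), and LEFTY2 was the remaining tested member not called. The raised member was KLF4, at 0.254, 0.468 and 0.335 FPKM and 2.73, 3.38 and 2.89 FPKM (1.56 ± 0.11), which endothelial and epithelial cells also use.

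The oncofetal RNA-binding and chromatin genes around LIN28 divided by member. LIN28B fell from 45.1, 49.8 and 50.1 FPKM to 13.2, 18.7 and 16.2 FPKM (-1.55 ± 0.13, adjusted p = 7.08e-06), and IGF2BP3 (-1.32) and HMGA2 (-1.17) were lowered too. IGF2BP1 stood at 27.9, 34.4 and 34.2 FPKM in H1 against 42.8, 47.4 and 45.2 FPKM in day 5 libraries (0.48 ± 0.11) and was not called, like IGF2BP2 (0.25) and HMGA1 (-0.37) and LIN28A. Thus 3 of 7 members were lowered and 0 raised, beside 24.9% and 18.1% over all genes, with a median change of -0.94.

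Epithelial genes fell in 22 of 40 tested cases, rose in 4 and were not called in 14, with a median change of -1.13, beside 24.9% lowered over all genes. Of the 40, 5 passed through H1 libraries alone. CDH1, the E-cadherin gene, stood at 31.2, 36.8 and 35.05 FPKM in H1 against 3.96, 5.21 and 4.71 FPKM in CD31+CD34+ libraries (-2.65 ± 0.12, adjusted p = 1.99e-07). EPCAM stood at 45.9, 45.1 and 45.6 FPKM and 8.16, 6.85 and 8.55 FPKM (-2.40 ± 0.10), and the tight junction gene OCLN at 4.62, 8.13 and 7.799 FPKM and 0.696, 0.858 and 1.03 FPKM (-2.05 ± 0.19). These junction genes fell in every day 5 library without being lost. Larger falls were those of the vesicle traffic genes MAL2 (-3.49) and AP1M2 (-3.12), the splicing regulator gene ESRP1 (-2.91) and CD24 (-2.80). The keratin genes went the other way. KRT8 stood at 158, 152 and 145 FPKM and 639, 709 and 613 FPKM (2.10 ± 0.10), and its partner KRT18 went from 296 ± 15.1 to 619 ± 67.2 FPKM (1.06 ± 0.11). KRT19 (1.18) and the plakoglobin gene JUP (2.06), which also serves endothelial junctions, were the other raised members. KRT18 lost its call without CD31+CD34+ replicate 2, at 0.99. The 50 listed KRT8 copies and 68 listed KRT18 copies summed to 11.4 to 17.9 FPKM and 3.11 to 4.83 FPKM over the 6 libraries. Summed over the list, keratins included, expression was 1950 to 2000 FPKM in H1 and 1807 to 2023 FPKM in CD31+CD34+ libraries.

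Mesenchymal genes were raised in 22 of 26 tested cases of 32, beside 18.1% over all genes. Their median change was 2.41, and 14 passed through CD31+CD34+ libraries alone. This list was written for the comparison and is not the gene set that the study followed through differentiation. FN1, the fibronectin gene, stood at 12.4, 12.9 and 12.1 FPKM in H1 against 555, 661 and 627 FPKM in CD31+CD34+ libraries (5.51 ± 0.10, adjusted p = 5.59e-09). ZEB2, a repressor gene of E-cadherin, stood at 0.171, 0.09201 and 0.0231 FPKM and 47.99, 49.3 and 47.3 FPKM (5.49 ± 0.10), and the cadherin gene CDH11 at 5.48, 4.42 and 3.82 FPKM and 191, 208 and 198 FPKM (5.17 ± 0.12). The libraries of the populations did not overlap for any of these genes, nor for 81.0% of all genes tested. The snail genes were lower. SNAI1 stood at 0.596, 1.09 and 0.9399 FPKM and 2.89, 5.25 and 4.92 FPKM (1.49 ± 0.19), and SNAI2 at 0.111, 0.197 and 0.09104 FPKM and 1.76, 2.37 and 1.98 FPKM (1.42 ± 0.11). SNAI3 went the opposite way, from 3.43, 2.895 and 2.801 FPKM to 0.136, 0.243 and 0.358 FPKM (-1.70 ± 0.11). OVOL2, whose product opposes the mesenchymal state, was lowered from 3.93, 3.24 and 2.77 FPKM to 1.83, 0.5997 and 0.628 FPKM (-1.14 ± 0.22) and fell short of the minimum under quantile normalization (-0.96) and, narrowly, without CD31+CD34+ replicate 2. MSX2 (3.69) and, named after its values were seen, vimentin VIM (4.45) were raised, while TCF4 and PRRX2 were not called (-0.10 and 0.76).

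Mesoderm genes were expressed in the CD31+CD34+ cells, but not evenly. Of 23 genes of primitive streak and mesoderm, 15 were tested, 13 raised and 0 lowered, beside 18.1% and 24.9% over all genes. Their median change was 2.31, and 13 passed through CD31+CD34+ libraries alone. HAND1, a factor gene of lateral and extraembryonic mesoderm, stood at 0.0543, 0.0467 and 0.0698 FPKM in H1 against 18.6, 24.8 and 24.5 FPKM in CD31+CD34+ libraries (4.47 ± 0.13, adjusted p = 2.94e-08). The heart factor gene NKX2-5 stood at 0.07604, 0 and 0 FPKM and 21.8, 22.97 and 20.4 FPKM (4.47 ± 0.10). Both genes were below 0.1 FPKM in every H1 library. TBX3 (4.17), GATA6 (4.05), GATA4 (3.49) and TBX20 (2.55), further factors of heart and lateral mesoderm, were raised too. EOMES, a primitive streak factor gene, stood at 0.0619, 0.0793 and 0.0638 FPKM and 4.06, 4.18 and 4.17 FPKM (2.27 ± 0.087), whereas the streak genes T, MIXL1, MESP1 and GSC did not reach the test. PDGFRA was not called at 1.73, 1.704 and 1.74 FPKM and 3.89, 4.26 and 4.59 FPKM (0.94 ± 0.10), and passed the 2-fold minimum with a pseudocount of 0.1 (1.25) or quantile normalization (1.11). FOXD1 was under 1 FPKM throughout and was not tested.

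Markers of other cell types moved with the comparison as well. Stromal and smooth muscle genes were raised in 11 of 16 tested cases of 21, beside 18.1% over all genes. Their median change was 1.68, and their summed level was 399.7 to 411 FPKM in H1 and 1238 to 1388 FPKM in CD31+CD34+ libraries. Of the 16, 2 passed through CD31+CD34+ libraries alone and 1 through H1 libraries alone. Cardiac actin ACTC1 stood at 1.75, 3.75 and 2.29 FPKM in H1 against 84.3, 114 and 112 FPKM in day 5 libraries (4.88 ± 0.21), and the collagen gene COL3A1 at 0.385, 0.0274 and 0.00887 FPKM and 24.03, 25.7 and 22.96 FPKM (4.48 ± 0.14). Heart troponin TNNT2 fell in the same libraries (-2.22), and THY1 (0.056), TPM2 (-0.0044) and CNN1 (0.72) were not called. Of its 21 members, 0 were listed at 0 in all 3 CD31+CD34+ libraries. Endoderm and liver genes were raised in 5 of 7 tested cases of 16, of which 5 passed through CD31+CD34+ libraries alone and so had a fixed direction, with summed levels of 15.7 to 16.2 FPKM in H1 and 61.4 to 73.7 FPKM in CD31+CD34+ libraries. SOX17 and GATA6, which the list shares with other lists, made up part of that, along with APOA1 (3.18) and CDX2 (1.69), while AFP fell (-1.42). Neural and ectoderm genes were lowered in 4 of 9 tested cases of 20, SOX2 (-5.41), ZIC2 (-2.60), ZIC5 (-2.56) and SOX3 (-2.02), and raised in NCAM1 and TFAP2C (1.85 and 1.48). Of the 9, 4 passed through H1 libraries alone and 1 through CD31+CD34+ libraries alone, and 24.9% of all genes were lowered. Their part in the rises of mesenchymal and matrix genes was not tested.

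Genes of basement membrane and matrix were raised in 25 of 30 tested cases of 33, beside 18.1% over all genes. Their median change was 2.25. COL5A1 stood at 2.101, 1.73 and 1.56 FPKM in H1 against 152, 127 and 113 FPKM in CD31+CD34+ libraries (5.55 ± 0.13, adjusted p = 1.30e-08). The basement membrane collagen gene COL4A2 stood at 20.5, 16.5 and 15.7 FPKM and 260.4, 228 and 189 FPKM (3.61 ± 0.15), and tenascin TNC at 1.58, 1.52 and 1.54 FPKM and 44.5, 51.1 and 48.2 FPKM (4.26 ± 0.10). Fibronectin, above, belongs to the same group. The laminin genes LAMA1 (0.0062) and LAMA5 (0.50) were not called. VCAN, a proteoglycan gene of H1 cells, stood at 66.02, 82.8 and 79.4 FPKM and 35.6, 38.5 and 38.6 FPKM, a change of -0.99 ± 0.11 at the edge of the minimum.

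Integrin genes, the receptors for this matrix, had a median change of only 0.37, with 7 raised and 2 lowered of 16 tested. Over all genes 18.1% were raised and 24.9% lowered. Of the 16, 3 passed through CD31+CD34+ libraries alone. ITGA5, the fibronectin receptor chain gene, stood at 5.75, 6.94 and 6.69 FPKM in H1 against 150.2, 183 and 172 FPKM in day 5 libraries (4.51 ± 0.11, adjusted p = 1.49e-08). ITGA9 stood at 1.53, 1.505 and 1.38 FPKM and 62.8, 65.7 and 61.6 FPKM (4.70 ± 0.091), and ITGA10 (3.50) and ITGA3 (2.00) were raised too. The laminin receptor chain gene ITGA6 fell from 40.3, 44.03 and 43.9 FPKM to 9.51, 11.1 and 10.5 FPKM (-1.94 ± 0.10). Their common partner ITGB1 stood at 78.4, 87.2 and 86.5 FPKM and 69.4, 85.95 and 89.6 FPKM, with overlapping libraries (-0.048 ± 0.12). The alpha chain genes thus changed in both directions while the beta chain gene was not called.

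Notch genes were raised in 10 of 18 tested cases of 23, beside 18.1% over all genes. Their median change was 1.28, and 4 passed through CD31+CD34+ libraries alone. Notch receptors on a cell are cut when a neighbour's ligand binds, and the freed fragment joins the DNA-binding protein RBPJ to switch on HES and HEY genes. The ligand gene DLL4 stood at 0.121, 0.0896 and 0.0331 FPKM in H1 against 9.84, 9.68 and 8.55 FPKM in CD31+CD34+ libraries (3.26 ± 0.10), and JAG2 at 1.91, 1.68 and 1.64 FPKM and 27.9, 31.2 and 27.2 FPKM (3.44 ± 0.10, adjusted p = 3.33e-08). The fringe gene MFNG, whose enzyme modifies the receptors, stood at 1.45, 1.48 and 1.02 FPKM and 28.6, 32.5 and 31.4 FPKM (3.79 ± 0.12), while its relatives LFNG (0.60) and RFNG (0.47) were not called. Target genes rose, with HES4 at 0.277, 0.0988 and 0.122 FPKM and 14.1, 9.05 and 9.22 FPKM (3.31 ± 0.17). Ligand, modifier and target were each higher in all day 5 libraries, and 81.0% of all genes tested had no overlap. Named after their values were seen, the receptor gene NOTCH1 (2.20) and the targets HES1 (2.52), HEY1 (2.23) and HEY2 (1.65) were raised and JAG1 (0.24) was not called. RBPJ itself fell from 43.6, 70.8 and 64.1 FPKM to 3.86, 4.97 and 3.48 FPKM (-3.55 ± 0.19, adjusted p = 5.25e-07). It was the lowered member of the group, and its 4 listed copies summed to at most 0.00834 FPKM in any library.

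Genes of BMP, TGF-beta and nodal signalling moved in both directions. Activin A and nodal signal through SMAD2, BMPs through SMAD5 and its relatives, and the inhibitory SMAD6 and SMAD7 and the ID genes are induced by these signals. Of 45 genes, 38 were tested, 19 raised and 4 lowered, beside 18.1% and 24.9% over all genes. Their median change was 0.99, and 8 passed through CD31+CD34+ libraries alone. Among ligands, TGFB1 stood at 0.908, 0.495 and 0.602 FPKM in H1 against 26.9, 25.7 and 23.2 FPKM in CD31+CD34+ libraries (3.98 ± 0.13, adjusted p = 3.96e-08), and BMP2 at 0.507, 0.404 and 0.4402 FPKM and 3.77, 3.51 and 3.62 FPKM (1.68 ± 0.092). BMP4, named after its values were seen, went from 0.878 ± 0.289 to 27.7 ± 0.798 FPKM, and its protein had also been in the medium until day 2. NODAL fell from 3.62, 2.94 and 2.395 FPKM to 0.442, 0.5402 and 0.431 FPKM (-1.43 ± 0.13), with its co-receptor gene TDGF1, from 234 ± 15.7 to 11.9 ± 0.787 FPKM (-4.18 ± 0.10), and its antagonist gene LEFTY1 (-1.78). All 3 are also on the pluripotency list.

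Among receptors of this family, ACVRL1, the endothelial receptor gene, stood at 0.311, 0.0723 and 0.1995 FPKM in H1 against 94.2, 87.5 and 82.1 FPKM in day 5 libraries (6.22 ± 0.11, adjusted p = 5.96e-09), while BMPR1A fell from 27.1, 32.7 and 31.9 FPKM to 6.74, 10.8 and 9.02 FPKM (-1.70 ± 0.16). The order of these receptor genes by FPKM was thus opposite in the populations. The inhibitor gene SMAD6 stood at 2.49, 2.198 and 1.53 FPKM and 97.1, 120.2 and 106 FPKM (5.15 ± 0.14), and the targets ID1 (2.73) and ID2 (3.51), named after their values were seen, were raised too. The transducer genes SMAD2 (-0.33), SMAD4 (-0.65) and SMAD5 (-0.21) were not called.

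FGF genes had a median change of 0.062, with 4 raised and 2 lowered of 18 tested, beside 18.1% raised and 24.9% lowered over all genes. FGF2, which encodes bFGF, fell from 16.9, 15.8 and 14.01 FPKM to 1.39, 1.11 and 0.809 FPKM (-2.98 ± 0.13, adjusted p = 2.06e-07). The receptor genes went apart: FGFR2 fell from 21.3, 19.1 and 19.2 FPKM to 4.42, 4.63 and 4.23 FPKM (-1.94 ± 0.10) and FGFR3 rose from 2.64, 2.17 and 2.68 FPKM to 16.1, 13.5 and 14.3 FPKM (2.16 ± 0.11). FGFR1 was the most expressed receptor gene in both populations, at 68.1, 81.5 and 76.9 FPKM and 86.5, 109.6 and 98.6 FPKM, and was not called (0.37 ± 0.12). The feedback inhibitor gene SPRY1 rose (1.95), while the feedback phosphatase gene DUSP6 (-0.65) and the target ETV4 (0.14) were not called.

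Wnt genes moved in both directions. Of 50 genes, 36 were tested, 13 raised and 6 lowered, with a median change of 0.37. Of these 10 passed through CD31+CD34+ libraries alone, and 18.1% of all genes were raised and 24.9% lowered. Among genes of the sending cell, WLS, whose protein carries Wnt ligands to the surface, stood at 0.4103, 0.552 and 0.627 FPKM in H1 against 49.9, 69.9 and 63.2 FPKM in CD31+CD34+ libraries (5.33 ± 0.14, adjusted p = 1.93e-08). The ligand gene WNT11 stood at 0.0772, 0.05905 and 0.0168 FPKM and 22.3, 21.6 and 20.7 FPKM (4.42 ± 0.10), and WNT5B rose by 3.28 ± 0.11. These ligands and their carrier were below 1 FPKM in every H1 library. Among receptors, FZD7 fell from 51, 45 and 45.1 FPKM to 8.88, 9.12 and 8.45 FPKM (-2.29 ± 0.094), FZD3 (-1.72) and FZD5 (-1.40) fell, and FZD4 (1.20) and FZD10 (1.34) rose. The secreted antagonist genes SFRP1, from 56.7, 78.6 and 77.1 FPKM to 12.7, 14.8 and 15.5 FPKM (-2.21 ± 0.14), and SFRP2 (-2.13) fell, while those of the other family, DKK1 (2.06) and DKK2 (1.81), rose. LEF1, a nuclear factor of the pathway, rose to 6.18, 9.66 and 8.82 FPKM (2.93 ± 0.16). The core genes CTNNB1, GSK3B and AXIN1 were not called (0.17, 0.46 and -0.044), nor was the target AXIN2 (0.16), named after its values were seen.

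HOX genes, which mark position along the body, were expressed from a single cluster. Of 39 genes, 8 were tested and all 8 were raised, beside 18.1% over all genes. Their median change was 2.31, and the 8 were HOXB2 to HOXB9. HOXB6 stood at 0, 0.00705 and 0 FPKM in H1 against 8.35, 9.13 and 7.92 FPKM in CD31+CD34+ libraries (3.24 ± 0.10, adjusted p = 3.43e-08). HOXB9 stood at 0.00698, 0.00425 and 0 FPKM and 5.11, 9.68 and 9.33 FPKM (3.13 ± 0.20), and HOXB2 at 0.0408, 0.136 and 0 FPKM and 8.48, 6.94 and 6.43 FPKM (2.96 ± 0.12). HOXB7 was listed at 0 in every H1 library and at 3.81, 4.48 and 3.99 FPKM in the day 5 ones, and HOXB5 likewise at 0 and at 1.81, 1.698 and 1.97 FPKM, so their fitted changes, which enter the median, are no bounds. Every tested HOXB gene passed through the day 5 libraries alone, so the direction of the 8 follows from the minimum of 1 FPKM. The HOXA, HOXC and HOXD genes, and HOXB1 and HOXB13, stayed under 1 FPKM in both populations, with 9 of the 39 listed at 0 in all day 5 libraries and 25 in all H1 libraries. HOXA9, a gene of blood stem cells, averaged 0.0944 FPKM in CD31+CD34+ cells.

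DNA methylation and Polycomb genes had a median change of -0.48, with 3 raised and 8 lowered of 29 tested, a lowered share near the 24.9% of all genes. Of the 29, 2 passed through CD31+CD34+ libraries alone. The methyltransferase gene DNMT3B fell from 350.4, 369.9 and 359 FPKM to 48.8, 54.6 and 51.6 FPKM (-2.78 ± 0.088, adjusted p = 4.03e-08), while DNMT1, which copies methylation at replication, overlapped at 25.1, 33.9 and 31.8 FPKM and 27.9, 32.4 and 31.6 FPKM (0.026 ± 0.13). DNMT3A was not called (-0.48). The polyhomeotic subunit genes of Polycomb complex 1 exchanged levels. PHC1 fell from 121, 153 and 146 FPKM to 15.6, 17.5 and 15.8 FPKM (-3.02 ± 0.11), and PHC2 rose from 1.99, 1.96 and 1.35 FPKM to 56.4, 61.2 and 61.6 FPKM (4.46 ± 0.12). Their order by FPKM turned from PHC1 over PHC2 in every H1 library to PHC2 over PHC1 in every day 5 library. JARID2, a cofactor gene of Polycomb complex 2, and RNF2, the ubiquitin ligase gene of complex 1, fell (-2.72 ± 0.11 and -2.51 ± 0.16). Named after their values were seen, the core genes EZH2 (-0.96) and SUZ12 (-0.996) missed the 2-fold minimum and EED (-1.56) was lowered. TET2 rose (1.11 ± 0.19) and lost its call without CD31+CD34+ replicate 3 (0.94).

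Genes of replication and mitosis were lowered in 12 of 30 tested cases and raised in 1, beside 24.9% and 18.1% over all genes. The median change was -0.61. The topoisomerase gene TOP2A fell from 52.7, 65.6 and 65.7 FPKM to 5.79, 7.44 and 8.66 FPKM (-2.92 ± 0.15, adjusted p = 4.32e-07), PCNA from 176, 176 and 170.0 FPKM to 40.8, 48.02 and 47.4 FPKM (-1.92 ± 0.10) and CDK1 from 65.2, 56.95 and 55.9 FPKM to 13.7, 14.5 and 14.8 FPKM (-1.98 ± 0.10). GMNN, the gene of the licensing inhibitor geminin, fell as well (-2.29). The helicase genes MCM7 (0.082) and MCM5 (-0.35) and the cyclin gene CCNB1 (-0.39) were not called, and the mitotic kinase gene PLK1 rose (1.21 ± 0.092). The list thus held falls of 4-fold and over beside genes with little change.

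Several inhibitors and kinase partners of the cell cycle rose. CDKN1C, which encodes the inhibitor p57, stood at 1.16, 0.9796 and 1.12 FPKM in H1 against 25.2, 20.03 and 18.8 FPKM in CD31+CD34+ libraries (3.41 ± 0.13, adjusted p = 9.29e-08), and CDKN1A, which encodes p21, at 4.32, 4.902 and 4.31 FPKM and 31.5, 34.9 and 32.1 FPKM (2.62 ± 0.10). Cyclin genes CCND1 (2.29) and CCND3 (2.43) rose, and CCND2 was not called (-0.88). MYCN fell from 23.8, 27.6 and 27.1 FPKM to 5.403, 8.05 and 6.21 FPKM (-1.86 ± 0.14), while MYC, at 23.1, 21.1 and 19.7 FPKM and 41.8, 39.8 and 32.1 FPKM, was not called (0.80 ± 0.12). MYCN was the higher of the pair in every H1 library and MYC in every day 5 library. The cyclin E genes CCNE2 (-1.32) and CCNE1 (-1.001) were lowered, the latter at the very edge of the minimum and short of it in 7 alternative settings. Of 19 tested genes in this list 7 were raised and 3 lowered, beside 18.1% and 24.9% over all genes. The median change was 0.41.

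Glycolysis genes were raised in 6 and lowered in 2 of 24 cases, beside 18.1% and 24.9% over all genes, with a median change of 0.45. LDHB, a lactate dehydrogenase subunit gene, fell from 1045, 1091 and 1057 FPKM to 96.3, 118 and 122 FPKM (-3.24 ± 0.11, adjusted p = 6.49e-08), and its 3 listed copies summed to at most 0.266 FPKM. The lactate transporter genes exchanged places, SLC16A1 falling from 115, 117 and 114 FPKM to 43.2, 50.5 and 51.8 FPKM (-1.24 ± 0.10) and SLC16A3 rising from 1.51, 1.36 and 0.985 FPKM to 104, 99.4 and 85.5 FPKM (5.42 ± 0.13). SLC16A3 was above SLC16A1 in every day 5 library and far below it in every H1 library. PKM, PFKP and PFKFB4 rose (1.45, 1.62 and 1.45), and the highly expressed genes GAPDH, ENO1 and TPI1 were not called (-0.21, 0.47 and 0.42).

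Cholesterol synthesis genes leaned one way, with 13 of 25 raised and 1 lowered, beside 18.1% and 24.9% over all genes. Their median change was 1.04. The mevalonate kinase gene MVK stood at 7.92, 7.897 and 6.63 FPKM in H1 against 40.4, 45.6 and 39.6 FPKM in CD31+CD34+ libraries (2.34 ± 0.11, adjusted p = 2.30e-07). MVD and DHCR7 rose (2.33 and 2.13). HMGCS1, the gene of an early enzyme of the pathway, was higher in every day 5 library but under 2-fold (0.75 ± 0.13). IDI1 was the lowered member (-1.18 ± 0.091). The summed level of the list was 1244 to 1341 FPKM in H1 and 3039 to 3338 FPKM in CD31+CD34+ libraries.

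Of 28 tested genes of MHC class I and interferon response, 11 were raised and 1 lowered, beside 18.1% and 24.9% over all genes. The median change was 0.84, and 3 passed through CD31+CD34+ libraries alone and 1 through H1 libraries alone. ISG15, a ubiquitin-like modifier gene, stood at 29.1, 18.4 and 18.3 FPKM in H1 against 459, 383 and 330.0 FPKM in CD31+CD34+ libraries (4.11 ± 0.19, adjusted p = 2.70e-07), and the nonclassical MHC gene HLA-E at 4.36, 3.95 and 3.39 FPKM and 51.95, 52.7 and 47.7 FPKM (3.40 ± 0.11). The DNA sensor gene IFI16 (2.89) and the factor gene IRF1 (2.70) rose. IFITM1 and IFITM2, near copies of each other whose values are uncertain, overlapped between populations (0.17 and 0.10). HLA-B, at 16, 38.3 and 17.4 FPKM in H1 against 37.1, 42.5 and 40.04 FPKM in day 5 libraries, was not called (0.82 ± 0.28). H1 replicate 2 lay in the CD31+CD34+ range, and without that library the change was 1.21 and the gene was called.

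Of 24 imprinted genes, 13 were tested, 5 raised and 1 lowered, beside 18.1% raised and 24.9% lowered over all genes. Besides CDKN1C, the zinc finger gene PLAGL1 rose from 1.16, 0.405 and 0.193 FPKM to 13.4, 15.2 and 14.9 FPKM (3.33 ± 0.20), the growth factor gene IGF2 from 0.165, 0.0759 and 0.0314 FPKM to 3.26, 3.63 and 3.04 FPKM (1.98 ± 0.10) and GNAS by 1.45 ± 0.15. SNRPN fell from 530.3, 523 and 501 FPKM to 172, 208 and 198 FPKM (-1.43 ± 0.10). MEST (-0.93), GRB10 (0.90) and NNAT (0.59) were not called, and the median change was 0.59.

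Genes that respond to stress and to the dissociation of cells were raised in 14 of 18 tested cases, beside 18.1% over all genes. The median change was 1.78. Of the 18, 4 passed through CD31+CD34+ libraries alone, FOSB among them, which fixed their direction. The immediate early gene FOS stood at 6.37, 5.58 and 5.63 FPKM in H1 against 61.98, 61.2 and 61.97 FPKM in CD31+CD34+ libraries (3.19 ± 0.091, adjusted p = 2.65e-08), FOSB at 0.153, 0.0784 and 0.0447 FPKM and 14.6, 15.4 and 14.3 FPKM (3.85 ± 0.10), and DUSP1 (3.28) and JUND (3.07) rose as well. The heat shock genes did not follow. HSP90AA1 fell from 194, 214 and 210.3 FPKM to 53.05, 52.8 and 60.1 FPKM (-1.88 ± 0.10), HSPA8 fell (-1.10) and DNAJB1 was not called (0.14). Summed over the list, expression was 2371 to 2433 FPKM in H1 and 1321 to 1537 FPKM in CD31+CD34+ libraries. How the CD31+CD34+ cells were separated from the culture is not given in the sources used here, and the part of their handling in the rise of FOS and its relatives was not tested.

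Housekeeping genes had a median change of 0.35. Of 18 tested, 3 were raised, 2 lowered and 13 not called, beside 18.1%, 24.9% and 57.0% over all genes. POLR2A rose (1.56 ± 0.11), while TFRC, the transferrin receptor gene, fell from 42.3, 41.96 and 39.4 FPKM to 6.39, 7.31 and 7.55 FPKM (-2.39 ± 0.10) and PPIA fell by a change of -1.02 ± 0.11. ACTB, at 564, 546 and 542 FPKM in H1 against 1084, 1154 and 1061 FPKM in day 5 libraries (0.99 ± 0.10), lay just under the minimum. For the translation factor gene EEF1A1 the table gives 4616, 0 and 0 FPKM in H1 replicates and 1839, 2329 and 2301 FPKM in day 5 libraries, so its call rests on the zeros of H1 replicates 2 and 3, which replicates 2 and 3 of the APLNR+ and CD43+ populations share. Its 38 listed copies held 26.7, 26.9 and 24.5 FPKM in the same H1 libraries.

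Among the most expressed genes, ribosomal protein genes did not move together. RPS24 fell from 2734, 2638 and 2636 FPKM to 174, 215 and 216 FPKM (-3.73 ± 0.12, adjusted p = 3.95e-08), in all 3 day 5 libraries alike. RPS20 (-1.30 ± 0.11) and RPS23 (-1.25 ± 0.12) fell much less, and RPS18 (-0.53), RPL37A (-0.54), RPS27 (-0.66), RPL35 (0.27) and RPS19 (0.11) were not called. The 7 listed copies of RPS24 summed to at most 0.775 FPKM, and how the deposited values divide reads between a gene and its copies is not given in the sources used here. TMSB10, which encodes an actin-binding thymosin, rose from 2102, 1762 and 1752 FPKM to 5395, 5622 and 5156 FPKM (1.53 ± 0.13), and the myosin light chain gene MYL6 rose too (1.44 ± 0.15). EHMT1 reached 36020 FPKM in CD31+CD34+ replicate 1 and lay between 35.9 and 40.9 FPKM in the other 5 libraries. IMMP1L read 17.98, 11090 and 18780 FPKM in H1 replicates and 10.2, 6.79 and 5624 FPKM in day 5 libraries. Neither was called, and values carried by some libraries of a population are not read as a change. IMMP1L did pass the threshold with the replicate block (-4.32), without H1 replicate 1 (-7.51) and without CD31+CD34+ replicate 3 (-7.40).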

How the data were processed

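RNA was measured in libraries of H1 and CD31+CD34+ cells, 3 of each, made from total RNA with an Illumina TruSeq kit. The authors deposited FPKM values per gene; per the submitters' processing notes BWA, Bowtie and RSEM were named, with the human build hg19, while versions and roles are not given in the sources used here. Which of the sequencing companies named in the methods handled which library is not given in the sources used here. FPKM values give no read counts, so absolute depth is unknown and no counting interval is given. The values of low genes put H1 replicate 1 at 1.25 times the depth of CD31+CD34+ replicate 1, and the other libraries between 1.01 and 1.14 times that of CD31+CD34+ replicate 3. Each is the most common ratio among genes low in both libraries, and few genes held it. They were 249 of 2428 for H1 replicate 1, 35 of 3491 and 38 of 3468 for H1 replicates 2 and 3. For CD31+CD34+ replicate 2 they were 72 of 4570, so these depths are rough. With 3 libraries a population, that number limits the precision.

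The table held 58365 entries after 1 text line was dropped. Of 345 symbols on more than 1 line, only the line of highest mean entered, and 27 entries carried a date in place of a symbol. Gene types came from GENCODE 29 by symbol. The values were tested as log2(FPKM + 1) with limma 3.58.1 in R 4.3.3 (lmFit and eBayes, trend on), and p-values were adjusted by Benjamini-Hochberg over all 13729 genes, after the script had been tested on simulated data. Markers also had an exact permutation test. Tables and plots were made with Python 3.11.15, numpy 2.4.6, pandas 2.3.3 and matplotlib 3.10.9. Promoter windows came from RefSeq (GRCh38.p14), a different build from that of the values, and carry its coordinates.

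Named genes were the 4 markers, and the 12 largest rises and falls of protein-coding genes and the 5 largest of other types. For these, libraries did not overlap and the higher mean was at least 10 FPKM. From each list came up to 4 raised, 4 lowered and 3 uncalled genes, the last by highest mean, and every member of lists of 8 or fewer. The 8 most expressed coding genes of each population, the 6 uncalled genes standing highest in APLNR+ cells and genes the study discusses completed the rule. The members and lists were chosen with earlier results of these data known, and list counts are descriptions without a test. Alternatives were another pseudocount, filter, scaling, fit, minimum change and set of libraries. Columns of the other 6 libraries were used for the 4-population fit and for the values of APLNR+ cells. Values of some genes of the lists are not reported here.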

Additional observations from a re-analysis of the deposited data

How the results depend on the processing

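The counts depended most on the minimum change. With no minimum change 4957 genes were raised and 5947 lowered, and with a minimum of 4-fold 794 and 979. With a mean of at least 5 FPKM asked of each gene, fewer were tested, and 1660 were raised and 2180 lowered, while with no filter 2517 were raised and 3459 lowered. Leaving out each library in turn gave 2362 to 2577 raised genes, 3296 to 3514 lowered genes and 40.3% to 43.9% of calls raised. The pseudocount of 0.1 gave 2956 raised and 4121 lowered genes and moved the median of the endothelial surface list from 3.56 to 5.14 and that of the HOX list from 2.31 to 5.25. Quantile normalization gave 48.0% of calls raised. The replicate numbers did not pair all the libraries. The deviations of same-numbered libraries from their population means correlated at 0.264, -0.033 and 0.241. H1 replicate 1 correlated best with CD31+CD34+ replicate 1, and at 0.025 and -0.376 with replicates 2 and 3. H1 replicate 2 correlated best with CD31+CD34+ replicate 3 (0.309). With the replicate block 2487 genes were raised and 3430 lowered, and IMMP1L gained a call. Of 5007 changes of named genes recomputed under the alternatives, 4942 stayed on their side of the threshold, 39 lost the call and 26 gained it. Among changes called in the main fit or the alternative, 0 changed direction. Small uncalled changes could turn sign, like that of GDF3 from -0.085 to 0.033 with replicates 2 and 3 alone. Among 10 called genes that lost the call in at least 1 setting were KRT18, OVOL2, ITGAE, TET2, CCNE1, HSPA8, EEF1A1 and PPIA. MEST passed the minimum without CD31+CD34+ replicate 2, at -1.02. The causes were not tested. With 3 libraries a population and no read counts, differences near 2-fold and levels near 1 FPKM are the least certain.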

Other observations

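A comparison of H1 with CD31+CD34+ cells alone passes over genes that were high on the way, in the APLNR+ mesoderm cells of day 2. The 6 uncalled genes that stood highest in APLNR+ cells over both populations were chosen for that pattern, so their values are a description with no test. CER1, which encodes a secreted antagonist of nodal, BMP and Wnt ligands, stood at 1.58, 1.59 and 2.05 FPKM in H1, 2167, 2301 and 2245 FPKM in APLNR+ and 2.40, 1.52 and 1.56 FPKM in CD31+CD34+ libraries. The H1 and CD31+CD34+ libraries overlapped, and both lay far below every APLNR+ library. FST, the gene of the activin-binding protein follistatin, stood at 2.97, 1.98 and 2.43 FPKM in H1, 65.6, 68.1 and 68.0 FPKM in APLNR+ and 2.87, 2.80 and 3.79 FPKM in CD31+CD34+ libraries. CNKSR3 and LZTS1 had the same shape, with 60.2 to 75.6 FPKM and 50.3 to 55.6 FPKM in APLNR+ cells and at most 2.06 FPKM and 2.05 FPKM in any library of the compared pair. SEMA6D, a semaphorin gene, peaked at 24.7 to 32.7 FPKM in APLNR+ cells and stayed higher in CD31+CD34+ (1.05, 1.57 and 1.21 FPKM) than in H1 libraries (0.207, 0.322 and 0.228 FPKM). AC095350.2, an entry with no annotated type here, was listed at 0 in 3 of the compared libraries and varied from 55.3 to 153 FPKM in APLNR+ cells, so its values are uncertain.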
